A study of Mus musculus with 14 samples.

Results

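A set of 10 genes on the array encodes the AP-1 transcription factors and their companions among the immediate early genes, and their RNA was followed in hematopoietic stem cells (HSC) with age and in p53 mutants. The members are the 10 genes Fos, Fosb, Jun, Junb, Jund, Atf3, Egr1, Nr4a1, Ier2 and Ier3. They were chosen by name, with earlier results of these data known. Every probe set with 1 of these symbols was read, which gave 11 probe sets of 22626, 2 of them for Jun, and 10 genes of the 12393 genes with a single symbol. There were 14 Affymetrix MOE430A arrays in 7 groups, each group with an array A and an array B. The WT groups were HSC from male C57Bl/6 mice of 2, 6, 12 and 21 mo and whole bone marrow (WBM) of 2 mo. The mutant groups were HSC of 12 mo from p53+/- mice, which carry 1 inactive copy of p53, and from p53+/m mice, which carry a truncated allele (m) that raises p53 activity, each beside a normal copy. The paper states that mice of the p53 experiments had been crossed back to C57Bl/6 over several generations. Any strain difference that remained would go with genotype here and was not tested. HSC were sorted as side population cells that efflux the dye Hoechst and were c-Kit+, Sca-1+ and lineage-negative. An HSC array held RNA of a pool of mice and not of a single mouse, so the spread between arrays is that between pools, and precision is limited by having 2 per group. 
Immediate early genes are switched on within minutes of a signal, without new protein synthesis, by kinase cascades that act on transcription factors already bound at their promoters. Fos and Jun proteins pair through leucine zippers into AP-1, which binds DNA and turns on the next wave of genes, while Egr1 and Nr4a1 are a zinc finger factor and an orphan nuclear receptor induced in the same wave. In blood stem cells, Egr1, Nr4a1 and Jun family members are known for their part in quiescence and in restraining proliferation.

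Promoters hold sequences through which such signals can arrive. Those of Fos, Jun and Atf3 are shown as examples, and each carries a match to a site of the CREB and AP-1 family. Those of Fosb, Junb and Nr4a1 hold such matches too. The lines give the 150 bases before the transcription start from RefSeq on GRCm38.p6, 5′ to 3′ on the gene's own strand. Capitals mark TGACG, the first part of the cAMP response element, read on either strand (as CGTCA on the other), and the AP-1 octamer TGACATCA.
Fos promoter, chr12:85473740-85473889, plus strand: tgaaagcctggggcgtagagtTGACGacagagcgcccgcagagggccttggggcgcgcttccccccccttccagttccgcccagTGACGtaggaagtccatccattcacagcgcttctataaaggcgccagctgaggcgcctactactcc
Jun promoter, chr4:95052223-95052372, minus strand: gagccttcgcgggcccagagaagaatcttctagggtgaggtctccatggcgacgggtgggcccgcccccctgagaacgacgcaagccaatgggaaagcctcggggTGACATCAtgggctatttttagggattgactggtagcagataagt
Atf3 promoter, chr1:191183334-191183483, minus strand: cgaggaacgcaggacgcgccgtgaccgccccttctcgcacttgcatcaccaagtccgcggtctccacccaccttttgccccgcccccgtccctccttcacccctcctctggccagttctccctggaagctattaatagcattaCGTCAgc

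In Fos the TGACG matches lay at bases −129 to −125 and −66 to −62 before the start, and a TATA box (TATAAA), present in 1 of 8 members and 12.4% of windows, followed at −33 to −28. In Jun the octamer TGACATCA lay at −45 to −38, and in Atf3 the match lay at −7 to −3. Over the 250 bases before the start, TGACG on either strand was present in 5 of the 8 members with a promoter in the table (Fos, Fosb, Junb, Atf3 and Nr4a1) and in 17.8% of 32851 promoter windows. TGACATCA was present in 1 of 8 (Jun), against 2.93% of windows. The full cAMP response element TGACGTCA, which contains TGACG, was in 0 of 8, against 1.55% of windows. The AP-1 site TGACTCA, whose other strand reads TGAGTCA, was in 0 of 8, against 4.46%, and the CArG box of serum response factor was in 0 of 8, against 1.47%. The EGR site GCGNGGGCG was in 2 of 8 (Fosb and Nr4a1), against 4.70%, and the NF-kB site was in 3 of 8 (Fosb, Fos and Ier3), against 3.90%, each on either strand. These matches are letters in 1 window per gene and were not tested for binding. Sites further upstream than 250 bases were not read, nor were the promoters of Egr1 and Ier2. A motif absent here can thus still be present outside the window.

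The arrays were alike in overall signal: the median over probe sets lay between 3.93 and 4.10 on the log2 scale, and 42.7% to 43.6% of the probe sets reached log2 5. They were not alike in the RNA controls. The 18S rRNA probe set was 10.91 and 10.88 at 2 mo, 11.19 and 8.28 at 6 mo, 4.66 and 9.68 at 12 mo, and 4.84 and 5.44 at 21 mo in WT HSC, 5.32 and 5.14 in WBM, 8.92 and 7.96 in p53+/-, and 5.71 and 7.18 in p53+/m. The 3′ minus 5′ difference of Actb, which grows with shorter or degraded copies, ran from 2.73 to 6.27 and that of Gapdh from 3.06 to 5.42, both highest on array B of WT HSC at 12 mo. The arrays of WT HSC at 12 mo stood apart from each other. Over all probe sets their root mean square difference was 0.81 on the log2 scale, against 0.34 to 0.44 within the other 5 HSC pairs, and array A lay nearer to the 21 mo mean (0.43) and array B nearer to the 2 mo mean (0.48). The 13 HSC markers measured had a log2 summed level of 14.6 to 15.4 on the HSC arrays and 12.6 to 12.8 on the WBM arrays, and 9 of the 13, among them Procr, Meis1 and Hoxa9, had a higher mean in all 6 HSC groups than in WBM. Gfi1b and Abcg2 were lower in all 6 HSC groups than in WBM, and Slamf1 and Mecom differed little. Levels throughout are the authors' GC-RMA values on the log2 scale, where 1 unit is a doubling of signal. They were compared between arrays for the same probe set, never between genes. A probe set was called higher or lower when its Benjamini-Hochberg adjusted p from limma, over all 22626 probe sets, was under 0.05 and the difference at least 2-fold.

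**Figure D1:**
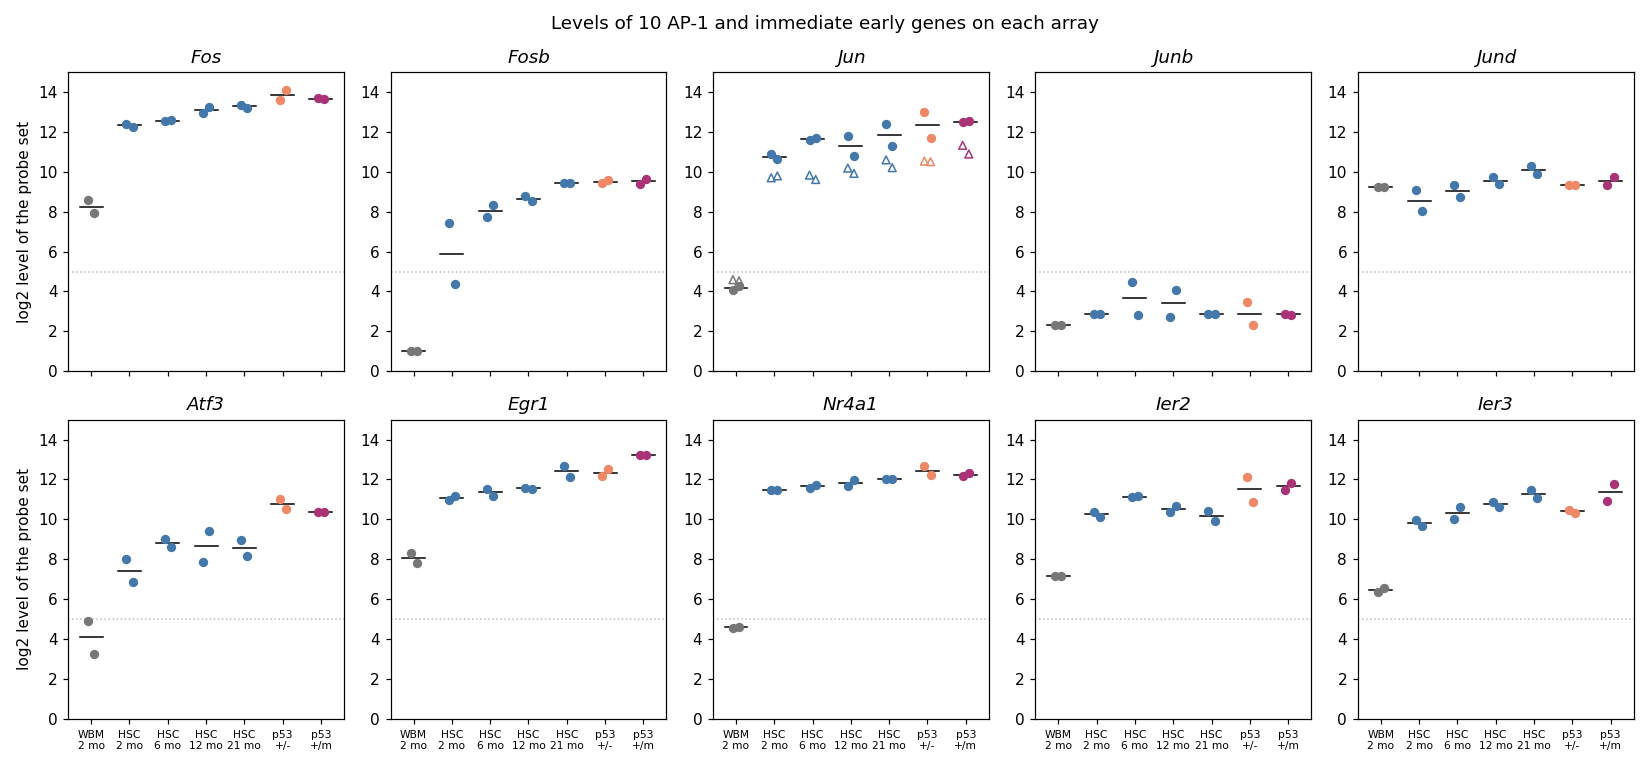
Log2 level (y axis) of the 10 genes on each of 14 arrays, by group (x axis; the last 2 groups are p53+/- and p53+/m HSC of 12 mo). Filled points are arrays on the gene's main probe set, bars are group means of 2 arrays, open triangles are the other Jun probe set, and the dotted line is log2 5; 8 genes lie far lower in WBM (grey), and Junb lies below the line on all 14 arrays.

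The first comparison asked which of these genes belong to the stem cell rather than to the marrow as a whole. At 2 mo, 8 of the 10 members were higher in HSC than in WBM (13.3% of all genes were) and none was lower (10.5% of all genes were). The median difference of the 10 members was 3.34 on the log2 scale, against −0.01 over all genes. It was 0.24 over the 6460 genes that reached log2 5 on at least 2 HSC arrays. Fewer cells of a type and less RNA per cell cannot be told apart in such bulk samples. Nor can the stem cell identity be told apart from any handling that was particular to the HSC.

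In WBM, Nr4a1, Jun, Fosb and Atf3 lay under log2 5, where a probe set gives no clear signal, so their differences are rough and are not ranked. Nr4a1, the orphan nuclear receptor, was 11.46 and 11.47 in HSC of 2 mo and 4.57 and 4.63 in WBM, so the groups lay far apart and each pair was tight. The difference was 6.86 ± 0.10 (SE, limma, adjusted p = 2.84e-07). Jun, the founding subunit of AP-1, was 10.88 and 10.64 in HSC against 4.07 and 4.29 in WBM, a difference of 6.58 ± 0.44 (SE, limma, adjusted p = 0.000229). Its other probe set read 9.70 and 9.79 against 4.59 and 4.53, a difference of 5.18 ± 0.16 (SE, limma, adjusted p = 7.83e-06). Both probe sets of Jun were called.

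Among the Fos proteins, which need a Jun partner to bind DNA, Fos was 12.41 and 12.26 in HSC and 8.58 and 7.92 in WBM. The difference was 4.08 ± 0.22 (SE, limma, adjusted p = 9.55e-05), or 16.9-fold, and Fos was well above log2 5 in WBM too. Fosb was 7.41 and 4.38 in HSC and 1.04 and 1.03 in WBM. The HSC arrays themselves differed by 3.03 in Fosb, so its difference of 4.86 ± 0.91 (SE, limma, adjusted p = 0.0119) was imprecise, with a 95% interval of 2.63 to 7.09. With the 4 compared arrays alone in the model, Fosb had an adjusted p of 0.0878, and it had 0.0633 and 0.0609 when WBM array A or B was left out.

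Atf3, a stress-induced partner of Jun that can repress transcription, was 7.99 and 6.87 in HSC and 4.91 and 3.28 in WBM. Its difference was 3.34 ± 0.79 (SE, limma, adjusted p = 0.0276), and the call was lost in 4 of 11 alternatives, with adjusted p up to 0.137. Egr1, the zinc finger factor, was 10.98 and 11.16 in HSC and 8.29 and 7.82 in WBM, a difference of 3.01 ± 0.25 (SE, limma, adjusted p = 0.000557). Ier2, a nuclear protein of the immediate early response, was 10.38 and 10.13 against 7.18 and 7.19, a difference of 3.07 ± 0.20 (SE, limma, adjusted p = 0.000179). Ier3, a stress-induced regulator of survival and of ERK signaling, was 9.97 and 9.67 against 6.39 and 6.56, a difference of 3.35 ± 0.24 (SE, limma, adjusted p = 0.00031). For these 3 genes, as for Fos, Jun and Nr4a1, the call held in 11 of 11 alternatives.

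The other 2 Jun proteins went apart from Jun. Jund, the constitutive member of the family and the 1 that is least tied to growth signals, was 9.06 and 8.04 in HSC and 9.23 and 9.21 in WBM, so that both WBM arrays were above both HSC arrays. The difference of −0.67 ± 0.39 (SE, limma, adjusted p = 0.34) did not pass, with a 95% interval of −1.62 to 0.28. Junb, which is induced with Jun and can oppose it, lay between 2.31 and 4.48 on all 14 arrays and reached log2 5 on none. Its probe set therefore gave no clear signal in any group and its differences, such as 0.52 ± 0.62 (SE, limma, adjusted p = 0.723) between HSC and WBM, say little of the gene.

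**Figure D2:**
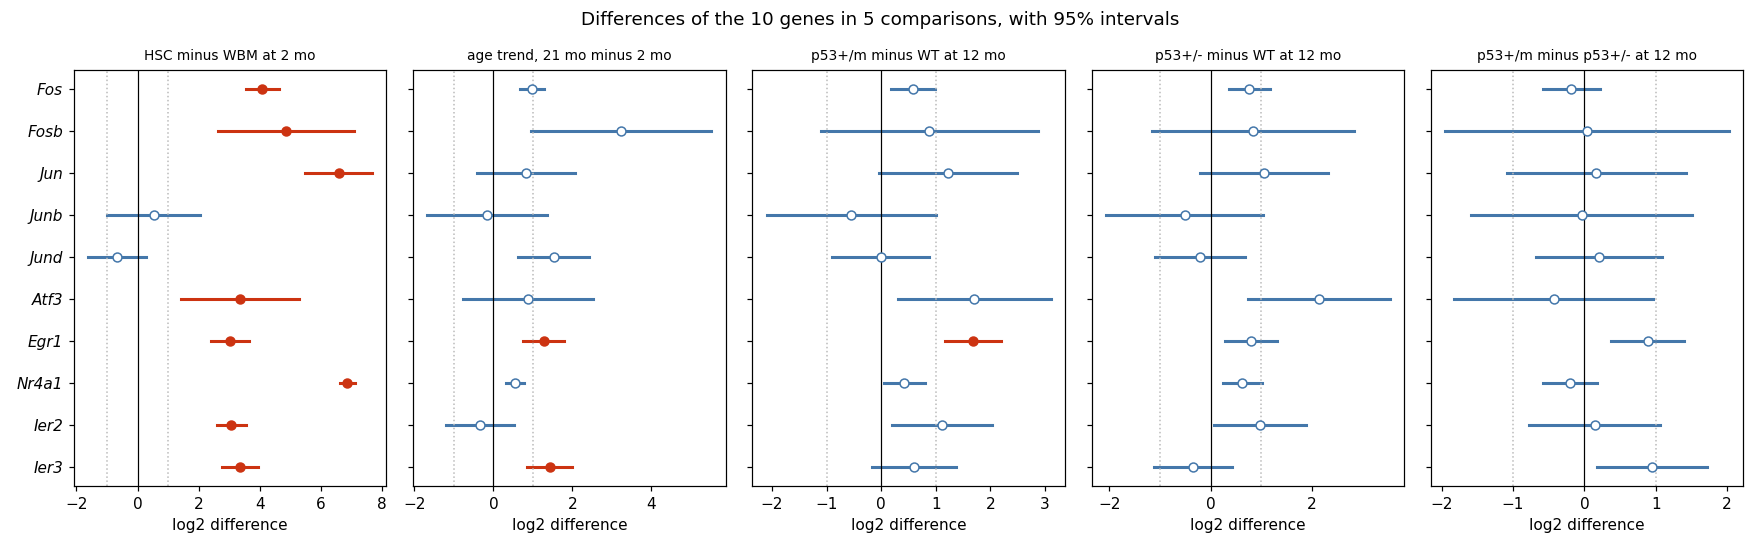
Log2 difference (x axis, a scale of its own in each panel) of each gene (y axis, main probe set) in 5 comparisons, with 95% intervals from limma; filled red points passed adjusted p under 0.05 and 2-fold, open blue points did not, and dotted lines mark 2-fold. In all, 8 genes passed in HSC against WBM, Ier3 and Egr1 with age, and Egr1 alone in p53+/m against WT.

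With age in WT HSC, 2 of the 10 members rose, Ier3 and Egr1 (1.45% of all genes rose), and none fell (2.03% of all genes fell). Fos and Nr4a1 passed the adjusted p but stayed under 2-fold, and over 17 alternatives the adjusted p of Fos was not under 0.05 in 8 and that of Nr4a1 in 11. The RNA controls moved with age as well: between 2 and 21 mo the 18S value went from 10.91 and 10.88 to 4.84 and 5.44, and the 3′ minus 5′ difference of Actb from 4.59 and 4.65 to 3.11 and 3.55. Their part in the age differences was not tested. Any sorting or handling that was particular to the arrays of an age cannot be told apart from age. In 8 of 10 members both arrays at 21 mo were above both arrays at 2 mo, as in 21.1% of all genes, and the exceptions were Ier2 and Junb. The median trend difference of the members between 2 and 21 mo was 0.93 on the log2 scale, against −0.02 over all genes and −0.03 over the 6460 genes that reached log2 5 on at least 2 HSC arrays.

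Ier3 was 9.97 and 9.67 at 2 mo, 10.04 and 10.64 at 6 mo, 10.86 and 10.63 at 12 mo, and 11.49 and 11.09 at 21 mo. Only the arrays of 6 and 12 mo overlapped. The trend rose by 1.42 ± 0.23 (SE, limma, adjusted p = 0.0382), or 2.68-fold. Egr1 was 10.98 and 11.16 at 2 mo, 11.55 and 11.18 at 6 mo, 11.56 and 11.54 at 12 mo, and 12.70 and 12.10 at 21 mo. Most of its increase thus lay between 12 and 21 mo, where the group means differed by 0.85, against 0.30 from 2 to 6 mo and 0.19 from 6 to 12 mo. The Egr1 trend rose by 1.27 ± 0.21 (SE, limma, adjusted p = 0.0406), or 2.42-fold. Both calls lay close to the threshold. Over 17 alternatives to the reported fit, Egr1 was called in 7 and Ier3 in 8, with differences of 0.98 to 1.54 and 1.23 to 1.60, and neither was called when any 1 of the arrays of 2, 6 or 21 mo was left out (adjusted p up to 0.152 and 0.146).

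Fos was 12.41 and 12.26 at 2 mo, 12.54 and 12.58 at 6 mo, 12.94 and 13.23 at 12 mo, and 13.36 and 13.17 at 21 mo. Each age was above the one before, apart from 21 mo, whose arrays overlapped those of 12 mo. Its difference was 0.99 ± 0.12 (SE, limma, adjusted p = 0.0238), or 1.98-fold, just under the 2-fold threshold, which it passed when array A of 12 mo was left out. Nr4a1 had the smallest spread of the 10 within HSC groups (pooled SD of 0.17), and was 11.46 and 11.47 at 2 mo, 11.60 and 11.72 at 6 mo, 11.66 and 11.96 at 12 mo, and 12.01 and 12.03 at 21 mo. Its difference was small, 0.55 ± 0.10 (SE, limma, adjusted p = 0.0445), or 1.46-fold.

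The largest trend difference belonged to Fosb, which was 7.41 and 4.38 at 2 mo, 7.75 and 8.33 at 6 mo, 8.78 and 8.51 at 12 mo, and 9.43 and 9.42 at 21 mo. No 2 ages overlapped, but array B of 2 mo lay more than 3 units below every other WT HSC array. The difference of 3.24 ± 0.92 (SE, limma, adjusted p = 0.119) did not pass, and it fell from 3.24 to 1.97 when that array was left out. When only probe sets at log2 5 or above on at least 2 of the 8 WT HSC arrays were kept, Fosb was called (limma, adjusted p = 0.029). Jund was 9.06 and 8.04 at 2 mo, 9.33 and 8.72 at 6 mo, 9.71 and 9.37 at 12 mo, and 10.31 and 9.87 at 21 mo. Array A exceeded array B at all 4 ages, by 0.34 to 1.02, and the difference of 1.53 ± 0.37 (SE, limma, adjusted p = 0.0839) did not pass. Jund was called with the replicate block on the array letter (limma, adjusted p = 0.0399) and with the same filter on low values (limma, adjusted p = 0.0281).

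Jun gave wide pairs, at 10.88 and 10.64 at 2 mo, 11.57 and 11.67 at 6 mo, 11.79 and 10.78 at 12 mo, and 12.37 and 11.29 at 21 mo. The difference was 0.83 ± 0.50 (SE, limma, adjusted p = 0.446). Its other probe set was tighter, at 9.70 and 9.79, 9.83 and 9.61, 10.18 and 9.92, and 10.59 and 10.20 over the same ages, with a difference of 0.70 ± 0.16 (SE, limma, adjusted p = 0.0723). Neither probe set of Jun passed. Atf3 was 7.99 and 6.87 at 2 mo, 9.03 and 8.60 at 6 mo, 7.87 and 9.43 at 12 mo, and 8.97 and 8.18 at 21 mo, so that the 3 later ages overlapped one another. Its difference was 0.88 ± 0.67 (SE, limma, adjusted p = 0.566), with a 95% interval of −0.77 to 2.52.

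Ier2 had another shape. It was 10.38 and 10.13 at 2 mo, 11.14 and 11.15 at 6 mo, 10.38 and 10.69 at 12 mo, and 10.43 and 9.90 at 21 mo. The 6 mo arrays were above all other WT HSC arrays, and those of 21 mo overlapped those of 2 mo. The trend difference was −0.34 ± 0.35 (SE, limma, adjusted p = 0.702), with a 95% interval of −1.20 to 0.52. Junb was 2.87 and 2.85 at 2 mo and 2.85 and 2.86 at 21 mo, where its probe set gave no clear signal.

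Markers of HSC and of other cells moved with age in the same arrays. For 5 of the 13 HSC markers (Kit, Abcb1a, Tek, Hlf and Meis1) the group mean was at least 1 log2 unit higher at 21 mo than at 2 mo. It was lower by that much for none. The log2 summed level of the HSC markers was 14.77 to 14.78 at 2 mo and 15.20 to 15.41 at 21 mo. Of 12 monocyte and macrophage markers measured, 3 to 5 reached log2 5 at 2 mo and 6 to 8 at 21 mo, and their log2 summed level was 10.98 to 11.00 at 2 mo, 11.94 to 12.03 at 21 mo and 15.3 to 15.4 in WBM. Group means were at least 1 log2 unit higher at 21 mo than at 2 mo for 5 of these 12 (Ly86, Mpeg1, Ccr2, Csf1r and Ms4a6c) and lower by that much for none, while Itgam, Cx3cr1 and Fcgr1 lay below log2 5 and hardly differed, and Cd14 was 8.38 to 10.13 in the HSC groups and 2.33 in WBM. The summed level of 14 neutrophil markers was 10.45 to 10.99 at 2 mo and 11.11 to 12.25 at 21 mo. Of these, 4 were at least 1 log2 unit higher at 21 mo (Lcn2, Ngp, Mpo and Mmp8). The means of Mpo (2.56 and 4.70) and Mmp8 (2.19 and 3.43) lay below log2 5 at both ages, so their changes are rough. Elane, neutrophil elastase, stayed at 2.20 to 2.27 in every HSC group, also below log2 5. The B lineage list summed to 8.05 to 8.28 at 2 mo and 6.21 to 6.49 at 21 mo, with Cd79b as its 1 gene at least 1 log2 unit lower. At the same ages the erythroid list summed to 9.71 to 9.74 and 10.51 to 10.77, and the megakaryocyte and platelet list to 10.16 to 10.52 and 10.76 to 11.08. The part of these marker changes, and of the cells they stand for, in the members' age differences was not tested.

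At 12 mo the p53 mutants were set against WT HSC of the same age, to ask whether a change of p53 activity goes with another level of these genes. In p53+/m HSC 1 of the 10 members rose, Egr1 (0.137% of all genes rose), and none fell (0.307% of all genes fell). In p53+/- HSC none rose (0.0807% of all genes rose) or fell (0.113% of all genes fell) by limma. In each mutant 5 of the 10 had an unadjusted p under 0.05 by limma, and the share over all genes was not computed. The median differences of the members were 0.74 in p53+/m and 0.78 in p53+/-, against −0.01 and −0.02 over all genes. Over the 6460 genes that reached log2 5 on at least 2 HSC arrays the medians were −0.10 and −0.07. Both comparisons share the same 2 WT arrays, which are those that stood apart from each other, so the 2 sets of values are not independent. Marker lists differed here too. The monocyte list summed to 10.81 to 11.08 in WT, 11.08 to 11.68 in p53+/- and 11.80 to 11.85 in p53+/m, the neutrophil list to 10.48 to 11.25, 9.86 to 10.03 and 9.71 to 10.84, and the megakaryocyte list to 10.98 to 12.07, 9.24 to 10.80 and 11.16 to 12.04. Their part in the members' differences, and that of the RNA controls, was not tested. Any sorting or handling that was particular to the arrays of a genotype cannot be told apart from the genotype here.

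Egr1 was 13.22 and 13.25 in p53+/m and 12.19 and 12.50 in p53+/-, against 11.56 and 11.54 in WT of 12 mo. The groups did not overlap, and p53+/m was above every other array of the series. The p53+/m difference was 1.68 ± 0.21 (SE, limma, adjusted p = 0.0275), or 3.21-fold, and it was 1.69 and 1.67 without WT array A and B of 12 mo, called in both. It was not called without either p53+/m array (adjusted p of 0.0859 and 0.0804), with the replicate block (0.0578), or with the 6 arrays of 12 mo alone (0.126). The p53+/- difference was 0.79 ± 0.21 (SE, limma, adjusted p = 0.279).

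Atf3, itself described as a p53 target, was 11.03 and 10.54 in p53+/- and 10.35 and 10.36 in p53+/m, against 7.87 and 9.43 in WT of 12 mo. All 4 mutant arrays lay above all 8 WT HSC arrays. The differences of 2.14 ± 0.59 (SE, limma, adjusted p = 0.292) and 1.70 ± 0.59 (SE, limma, adjusted p = 0.337) did not pass, and the 2 WT arrays differed by 1.57. The choice of WT array moved them most: they were 1.35 and 0.92 without array A, and 2.92 and 2.49 without array B, none of which passed (adjusted p of 0.205, 0.464, 0.0626 and 0.0547).

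Fos was 13.60 and 14.09 in p53+/- and 13.67 and 13.66 in p53+/m, against 12.94 and 13.23 in WT. Nr4a1 was 12.67 and 12.21 in p53+/- and 12.17 and 12.31 in p53+/m, against 11.66 and 11.96. For both genes, too, the 4 mutant arrays were above all 8 WT HSC arrays, those of 21 mo included. That held for 3 of the 10 members, Fos, Atf3 and Nr4a1, and for 0.581% of all genes. The single differences were not past the threshold: 0.76 ± 0.17 (SE, limma, adjusted p = 0.194) in p53+/- and 0.58 ± 0.17 (SE, limma, adjusted p = 0.236) in p53+/m for Fos, and 0.63 (adjusted p = 0.242) and 0.43 (adjusted p = 0.387) for Nr4a1.

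The 4 mutant arrays were above both WT arrays of 12 mo in 6 of the 10 members, Fos, Fosb, Egr1, Ier2, Atf3 and Nr4a1, and in 3.25% of all genes. By genotype this was so in 8 members in p53+/m (10.7% of all genes) and in 6 in p53+/- (7.79% of all genes). Fosb was 9.41 and 9.56 in p53+/-, and 9.41 and 9.64 in p53+/m, against 8.78 and 8.51 in WT of 12 mo. Those mutant levels lay beside the 9.43 and 9.42 of WT HSC of 21 mo. Ier2 was 12.12 and 10.89 in p53+/- and 11.49 and 11.81 in p53+/m, against 10.38 and 10.69, with differences of 0.97 (adjusted p = 0.561) and 1.12 (adjusted p = 0.334).

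Jun was 12.97 and 11.71 in p53+/- and 12.50 and 12.52 in p53+/m, against 11.79 and 10.78 in WT. On this probe set the p53+/- arrays overlapped those of WT and the p53+/m arrays did not. The p53+/- difference was 1.05 ± 0.53 (SE, limma, adjusted p = 0.727). The other probe set read 10.53 and 10.50 in p53+/-, above the 10.18 and 9.92 of WT, with a difference of 0.47 ± 0.19 (SE, limma, adjusted p = 0.568). The p53+/m difference was 1.22 ± 0.53 (SE, limma, adjusted p = 0.504) on the first probe set and 1.06 ± 0.19 (SE, limma, adjusted p = 0.072) on the other, which read 11.32 and 10.89. Ier3 was 10.46 and 10.33 in p53+/- and 10.91 and 11.78 in p53+/m, against 10.86 and 10.63, so the p53+/- arrays lay below WT and the p53+/m arrays above it. Neither difference passed, at −0.35 (adjusted p = 0.949) and 0.60 (adjusted p = 0.648). Jund, at 9.34 and 9.31 in p53+/- and 9.33 and 9.74 in p53+/m, overlapped the 9.71 and 9.37 of WT only in p53+/m, with differences of −0.22 and −0.01.

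The mutants were also compared with each other, to separate more from less p53 activity. None of the 10 members was called higher (0.0888% of all genes were) or lower (0.129% of all genes were) in p53+/m than in p53+/- by limma. On their main probe sets 2 had an unadjusted p under 0.05 by limma, a count without a share over all genes beside it. These were Ier3, with a difference of 0.95 ± 0.32 (SE, limma, adjusted p = 0.384) and a 95% interval of 0.18 to 1.72, and Egr1, with 0.89 ± 0.21 (SE, limma, adjusted p = 0.191) and an interval of 0.38 to 1.39. Both were higher on both p53+/m arrays than on both p53+/- arrays. For Atf3 the interval ran from −1.83 to 0.97 so that a 2-fold lower level lay within it. Jun differed by probe set: on the main one the interval ran from −1.09 to 1.43, whereas on the other both p53+/m arrays were above both p53+/- arrays, with a difference of 0.59 ± 0.19 (SE, limma, adjusted p = 0.333) and an interval of 0.15 to 1.03. For Fos the interval of −0.58 to 0.22 did not reach 2-fold. The median difference of the members was 0.09, against 0.01 over all genes and −0.02 over the 6460 genes that reached log2 5.

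Apart from Junb, the members tended to vary in the same direction over the 12 HSC arrays, some pairs closely and others hardly. All 36 pairs of the 9 genes had a positive Pearson correlation, with a median of 0.70. The highest was 0.88 between Fos and Nr4a1, followed by 0.87 between Atf3 and Nr4a1. The lowest was 0.04 between Jund and Ier2, followed by 0.21 between Ier2 and Ier3. The same values were not computed for sets of other genes. These are descriptions over 12 arrays that share ages, genotypes and preparation, and not over independent samples.

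**Figure D3:**
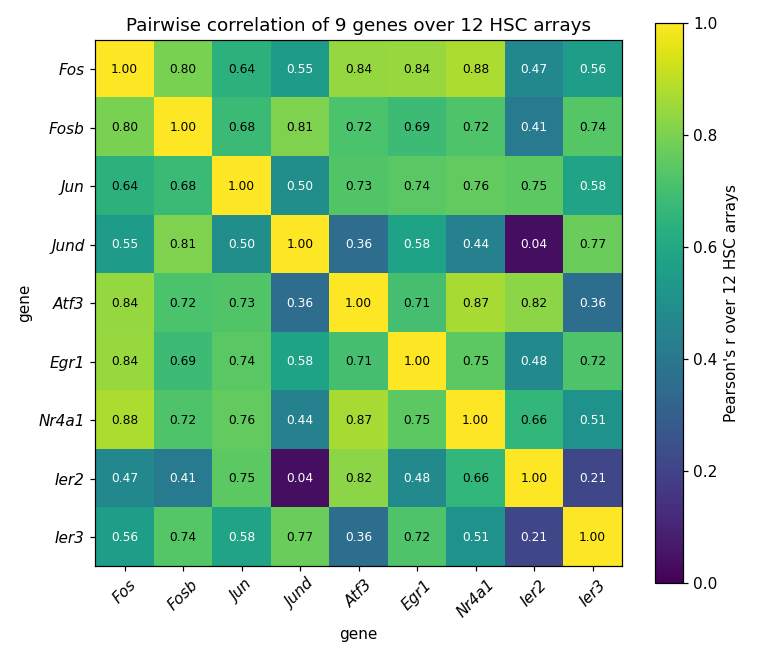
Pearson's r (colour and number) between each pair of 9 genes (both axes) over the 12 HSC arrays; Junb, below log2 5 on every array, is left out. All 36 pairs are above 0, from 0.04 (Jund and Ier2) to 0.88 (Fos and Nr4a1).

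Among 6460 genes that reached log2 5 on at least 2 HSC arrays, the genes most like Atf3 over the 12 arrays were Plk3 (r of 0.91), a stress-response kinase of the immediate early class, Slc19a2 (0.90) and Galnt11 (0.89). Ier2 was most like Tbxas1 (0.92), Flot1 (0.88) and again Plk3 (0.86). Egr1 was most like Srsf5 (0.91), Metap1 (0.90) and Hbegf (0.87), and Jun most like Tmed4 (0.89), Cd14 (0.87) and Srsf5 (0.85). Fosb was most like Rsrc2 (0.95), Chac1 (0.95) and Vmp1 (0.90), and Jund most like Tspyl4 (0.94), Gja1 (0.94) and Fzd3 (0.93). For Fos these genes were Srebf2, Calr and Larp1 (0.88 each), and for Ier3 they were Bzw1 (0.93), Purb (0.91) and Glipr1 (0.90). All of these values were picked as the highest among 6460 genes over only 12 arrays and were not tested. Those of Fosb rest heavily on array B of WT HSC at 2 mo, which at 4.38 lay far below every other HSC array.

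The genes around the members in the pathway were read from lists of other immediate early genes, of other AP-1 and bZIP partners, of the kinases and factors upstream, of the Nab and other coregulators, and of heat shock genes. Of 48 other immediate early genes measured, 5 rose with age (1.45% of all genes rose) and none fell (2.03% of all genes fell). The 4 largest were Ptgs2, the inducible cyclooxygenase, from 5.01 to 10.22 in group means with a trend difference of 5.22 (adjusted p = 0.0331), Dusp6, a phosphatase that shuts down ERK, by 3.03 (adjusted p = 0.0167), Bhlhe40, a repressor of the clock family, by 2.91 (adjusted p = 0.00797), and Trib1, a pseudokinase, by 1.58 (adjusted p = 0.0216). Trib1 lay at 3.84 at 2 mo, under log2 5, so the size of its rise is rough. The list's median trend difference was 0.41, and 0.76 over the 37 genes that reached log2 5. In p53+/m HSC 2 of the 48 rose, against 0.137% of all genes. They were Dusp2, a nuclear phosphatase of MAP kinases, by 1.96 (limma, adjusted p = 0.035), and Plk3 by 1.80 (limma, adjusted p = 0.0197). In p53+/- HSC 2 rose (0.0807% of all genes rose), the chemokine Cxcl1 by 3.53 (limma, adjusted p = 0.0219) and Plk3 by 2.24 (limma, adjusted p = 0.0219). Cxcl1 lay at 3.05 in WT of 12 mo, under log2 5, so the size of its difference is rough. None fell in either mutant (0.307% of all genes fell in p53+/m and 0.113% in p53+/-).

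Upstream of the members, 2 of 30 genes rose with age, against 1.45% of all genes. They were the kinase Map2k4, which activates JNK, by 1.70 (limma, adjusted p = 0.0383) and Srf, serum response factor, which drives Fos and Egr1, by 1.61 (limma, adjusted p = 0.0333). The 1 gene that fell (2.03% of all genes did) was Map2k2, a kinase that activates ERK, by 1.20 on the log2 scale (limma, adjusted p = 0.0331). The list's median was −0.01, or 0.32 over the 21 genes that reached log2 5. None of the 25 other AP-1 and bZIP partners, 8 coregulators or 12 heat shock genes passed with age by limma. Of them 12, 0 and 4 had an unadjusted p under 0.05 by limma, and the share over all genes was not computed. The difference was positive in 10 of the 12 heat shock genes, with a median of 0.51, and in 32.7% of all genes. Among genes that reached log2 5 it was positive in 9 of 10 heat shock genes and in 48.9% of 6460 genes. In these 3 lists and upstream, none was called in either mutant, and no gene of the 5 lists was called between the mutants.

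Genes of all 5 lists differed between HSC and WBM, where 13.3% of all genes were higher in HSC and 10.5% lower. Of 48 other immediate early genes, 16 were higher in HSC and 3 lower. The highest fitted differences were those of Errfi1, a feedback inhibitor of the EGF receptor (7.93), Rgs1, a damper of G protein signals (7.87), Nr4a2, a close relative of Nr4a1 (6.79), and Gadd45b (5.35), all 4 of which lay under log2 5 in WBM, so that these sizes are rough. The lower genes were Gadd45a (−3.60), Klf2 (−3.22) and Btg2 (−2.60), a brake on proliferation. Of the 25 partners, 6 were higher, led by Ddit3 (3.91) and Maff (3.73), and 4 lower, led by Bach2 (−4.71), a repressor best known in B cells. Maff stands in both lists and is also counted among the 16. Of the 30 upstream genes, 5 were higher, led by the cAMP-responsive Crem (5.36), and 6 lower, led by Mrtfa (−3.55), the coactivator of Srf. Of 8 coregulators, 4 were higher, among them Nab2 (3.27) and Nab1 (1.51), which repress Egr1, and 2 lower. Of 12 heat shock genes, Hspa1a (3.82) and Hspa1b (3.38), nearly identical copies whose probes can share signal, were higher. The members' 8 of 10 stood beside 16 of 48, 6 of 25, 5 of 30, 4 of 8 and 2 of 12 in these lists. Of these, 5 of 30 and 2 of 12 lie near the 13.3% of all genes. Maff, Crem, Nab2 and Hspa1a also lay under log2 5 in WBM, and Klf2 and Mrtfa did in HSC. The sizes of their differences are therefore rough too.

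**Figure D4:**
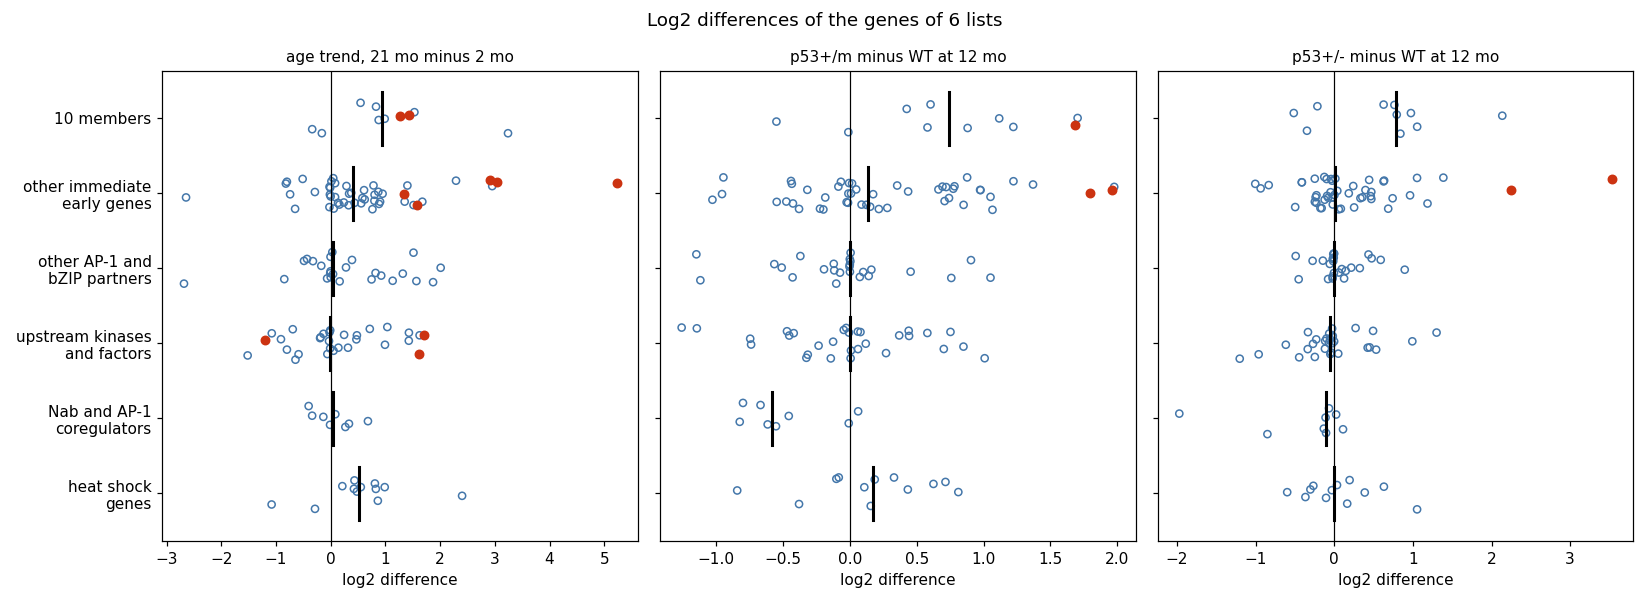
Log2 difference (x axis, a scale of its own in each panel) of every measured gene of 6 lists (y axis) with age, in p53+/m and in p53+/-, each against WT for the mutants; filled red points passed the threshold, open blue points did not, and bars are list medians. The members' medians are 0.93, 0.74 and 0.78, and those of the other immediate early genes 0.41, 0.14 and 0.01.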

How the data were processed

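RNA of sorted HSC (pooled mice per array) and of WBM was amplified by repeated in vitro transcription and hybridized to MOE430A arrays. From images processed in MAS 5.0, the authors computed and deposited log2 values by GC-RMA, 1 per probe set, and these were used as they stand. The GC-RMA version and a joint or separate normalization of the 14 arrays are not given in the sources. Ages were taken from the sample titles, because another label field gives 2 mo for every sample. After removal of 64 control probe sets, 22626 were tested with limma 3.58.1 in R 4.3.3 and adjusted by Benjamini-Hochberg over all of them, with a threshold of 0.05 and 2-fold. Age was fitted as a quadratic trend over 8 WT HSC arrays (21 mo minus 2 mo), HSC against WBM as group means over 10 WT arrays, and genotypes as group means over 12 HSC arrays. Where a gene had several probe sets, that of the highest WT HSC mean was taken, and for Jun both are given. The procedure was tested on simulated data.

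The members and gene lists were chosen with earlier results of these data known. Named were all members, up to 4 genes of each list per direction and comparison by size among those past the threshold, and, for members whose HSC group means span at least 1 log2 unit, the 3 genes with the highest Pearson correlation. Promoters are RefSeq sequences (GRCm38.p6), found for 8 of the 10 members; those of Egr1 and Ier2 were not used here. The alternatives changed the model, the arrays in it, the normalization, the filter on low values, the variance trend, the fold criterion, the probe set and the pairing, and left out each array in turn.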

Additional observations from a re-analysis of the deposited data

How the results depend on the processing

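Among the alternatives run, the count of 8 members higher in HSC than in WBM stayed within 1.5 times. The other counts of called members moved. With age (2 members), 0 were called with group means in place of the trend, 0 with both 12 mo arrays left out, 1 after quantile normalization, 1 with the replicate block, 4 with a filter on low values, 4 with no fold criterion, and 0 to 3 when 1 array was left out. In p53+/m against WT (1 member), 0 were called with the 6 arrays of 12 mo alone, 0 with the replicate block, and 0 to 1 when 1 array was left out. The counts of all called probe sets moved too. With age (641), they were 353 with group means, 978 with a straight line, 2086 without both 12 mo arrays, 2065 with the filter, 289 with the replicate block and 23 to 2218 with 1 array left out. In p53+/m against WT (101), they were 0 with the 6 arrays of 12 mo, 67 with a variance trend, 163 with no fold criterion, 59 with the replicate block and 91 to 1016 with 1 array left out. In p53+/- against WT (37), they were 0 with the 6 arrays, 7 with a variance trend, 17 with the replicate block and 68 to 1052 with 1 array left out. Between the mutants (44), they were 0 with the 6 arrays, 79 with no fold criterion, 16 with the replicate block and 58 to 78 with 1 array left out. The lowest age count, 23, came without array B of 2 mo and the highest, 2218, without array B of 12 mo. Signs turned only for differences that were not called. With 1 array left out, the range was −0.29 to 0.083 for Junb with age. In p53+/m against WT it was −0.22 to 0.19 for Jund, which was 0.036 after quantile normalization, and −1.22 to 0.12 for Junb, and in p53+/- against WT it was −1.18 to 0.15 for Junb. Between the mutants it was −0.47 to 0.75 for Ier2, −0.079 to 0.159 for Fosb, −0.002 to 0.409 for Jund, −0.63 to 0.56 for Junb, −0.431 to 0.027 for Nr4a1, −0.46 to 0.80 for Jun and −0.43 to 0.06 for Fos. Arrays with the same letter did not deviate together: over 21 pairs of groups the correlation of their deviations ran from −0.31 to 0.16, above 0.1 in 2, so the letters were not read as a pairing. The cause of these changes was not tested. With 2 arrays per group, the 95% intervals in the genotype comparisons reached at least 1 log2 unit to either side of the estimate for Atf3, Fosb, Junb and the main probe set of Jun. An estimate of 2-fold on these probe sets could not be called there. The adjusted p was a further hurdle for other members. In p53+/m against WT, Ier2 at 1.12 (limma, adjusted p = 0.334) and the other Jun probe set at 1.06 (limma, adjusted p = 0.072) were past 2-fold and not called. A member that was not called may thus still differ by 2-fold.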
